A study of Mus musculus with 12 samples.

Results

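The heat shock proteins and their co-chaperones were followed across 12 arrays of mouse PUER cells. Members were chosen by gene name: every probe named for an Hsp, Hsf, Dnaja, Dnajb, Dnajc, numbered Cct or numbered Bag gene, without 6 names of endoplasmic reticulum and mitochondrial chaperones (Hspa5, Hspa9, Hspa9a, Hsp90b1, Dnajb9 and Dnajc3). This gave 138 probes for 75 genes of the 27666 gene names on the array. Of these, 58 genes passed the filter on dim and missing spots and were tested. PUER cells are myeloid cells without their own PU.1, a transcription factor of blood cells; they hold PU.1 joined to the hormone-binding domain of the estrogen receptor. All 12 cultures grew in IL-3, carried a retroviral vector and were sorted for its GFP marker. The 4 groups were cells with Hnrnpa0 shRNA after 24 h in 2 nM 4-hydroxytamoxifen (4-OHT, which activates the fusion), the same cells before 4-OHT, control-vector cells after the same exposure, and control-vector cells before it. Each group had 3 arrays, A, B and C, from separate clones of each vector, and a medium with vehicle is mentioned in the protocol but no array is labelled with it.

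Heat shock proteins are molecular chaperones that help other proteins fold, refold or be degraded. HSP70 works in a cycle: a J protein (the DnaJ families) hands over a client and starts ATP hydrolysis, and a nucleotide exchange factor such as a BAG or HSP110 protein releases it. HSP90 and the CCT ring finish selected clients, such as kinases and steroid receptors for HSP90 and actin and tubulin for CCT. HSF1 is the transcription factor that switches on many of these genes under heat or protein damage. It binds heat shock elements, which are inverted repeats of the unit GAA.

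The estrogen receptor's ligand-binding domain, part of the PUER fusion, is itself a known HSP90 client. Levels below are log2 intensities relative to the 75th percentile of the same array, so 0 is that percentile. Such a level can be compared between arrays for 1 probe, but not between probes. A change is the 4-OHT group minus the group before, or shRNA minus control. A gene passed the test at an adjusted p under 0.05 by limma, with Benjamini-Hochberg adjustment over all 15061 genes tested. The arrays measure RNA in bulk, so fewer cells of a type and less RNA per cell cannot be told apart.

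Promoter sequences are shown for members that hold the letters known to be bound by HSF1 or PU.1. Promoters (250 bases before to 50 after a start) were taken from RefSeq on GRCm38.p6, and 60 of the 75 members had one. The 3-unit heat shock element (the unit GAA 3 times in alternating orientation, with 2 free bases between units), searched on both strands, was found for 4 of these 60 members (6.7%) and for 0.66% of the 27025 genes with a promoter. The 4 members were Dnajb6, Hspd1, Hspe1 and Hsph1. In Hsph1 the match lay after the annotated start. Hspd1 and Hspe1 form the mitochondrial chaperonin, are transcribed away from each other, and share 1 stretch of chromosome 1. The element is shown in capitals for the shared Hspe1 and Hspd1 stretch (chr1:55088047-55088088, on the strand of Hspe1), where 2 overlapping matches merge, and for Dnajb6 (chr5:29735840-29735876, plus strand).
Hspe1: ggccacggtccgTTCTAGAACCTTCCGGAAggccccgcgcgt
Dnajb6: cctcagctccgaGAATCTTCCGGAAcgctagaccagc
Dnajb6 was the single member with this element among the 16 that changed after 4-OHT in either vector and had a promoter. The letters GAGGAAGT, a form of the site that PU.1 is known to bind, were found on either strand in 3.69% of genes and in 1 of the 60 members, Dnajc6. This motif was chosen after the values of Dnajc6 had been seen. In Dnajc6 the match reads on the reverse strand, at position -169 from the start, and is shown in capitals (chr4:101550395-101550462, plus strand).
Dnajc6: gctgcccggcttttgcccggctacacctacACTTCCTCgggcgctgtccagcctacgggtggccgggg
The shorter form GAGGAAG was found in 13.3% of the members and in 15.36% of all genes. A match describes the letters and was not tested as a binding site.

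After 4-OHT, a minority of the tested chaperone genes changed, with Dnajc6 falling and Dnajc15 rising furthest among those measured above background in every group. In shRNA cells 15 of 58 members passed the test (25.9%), against 38.3% of all genes; 6 rose and 9 fell, against 16.5% and 21.8% of all genes in those directions. In control cells 17 of 58 passed (29.3%), against 40.5% of all genes; 7 rose and 10 fell, against 17.4% and 23.0% of all genes. The median log2 change of the members was -0.10 in shRNA cells and -0.07 in control cells, and that of all genes was -0.08 and -0.07. The medians of the members lay close to those of all genes. The arrays after 4-OHT did not overlap those before it for 27 of 58 members in shRNA cells and 23 in control cells. Of all genes, 51.5% and 51% did not overlap, so a lack of overlap was common. The 58 include 7 members on probes saturated on 11 or 12 arrays, which can hardly show a change; of the other 51, 29.4% passed in shRNA cells and 33.3% in control cells. With the slide as a fixed block, 14 members passed in shRNA cells, 12 of them among the 15, and 17 passed in control cells, 11 of them among the 17. All control arrays before 4-OHT were on slide 1, with control array A after it. All shRNA arrays after 4-OHT were on slide 3, with shRNA array C before it. Slide 2 held control arrays B and C after 4-OHT and shRNA arrays A and B before it. The slide and 4-OHT thus largely coincide. A fixed-block change rests on control array A after 4-OHT or on shRNA array C before it. Dnajc12 is among the 11, but had no value on control array A after 4-OHT. Its fixed-block change in control cells therefore cannot be told apart from the slide. As a check of the state of the cells, 6 of 6 monocyte and macrophage markers rose and 3 of 3 tested progenitor markers fell in each vector. Col1a1, Epcam and Krt18, markers of other tissues, were above background on 0 arrays, whereas the T cell, erythroid and endothelial markers Cd3e, Hba-a1, Epor and Pecam1 were above it on all 12. The T cell markers Cd3g and Cd8a were above it on 0. The part of the change in maturation markers in the members' changes was not tested. Hnrnpa0, the target of the shRNA, was 4.28-fold lower in shRNA than in control cells after 4-OHT (adjusted p = 0.00512) and 2.92-fold lower before it (adjusted p = 0.0127). The knockdown before 4-OHT was uneven. Hnrnpa0 was at 1.93, 1.57 and 1.00 on shRNA arrays A, B and C, against 3.11, 3.06 and 2.98 in control cells.

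**Figure D1:**
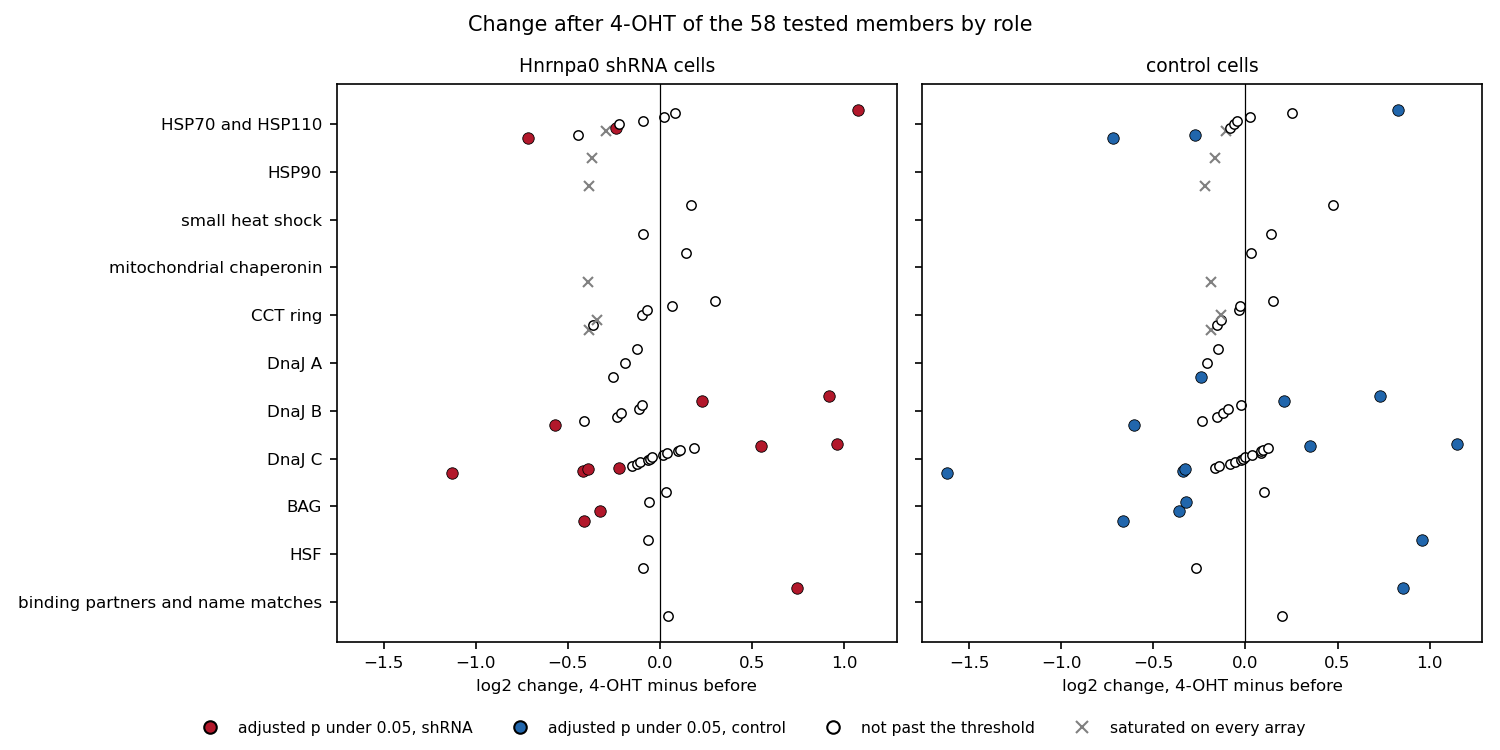
Log2 change after 4-OHT (horizontal axis) of the 58 tested members by role, in shRNA cells (left) and control cells (right). Filled points passed the threshold, open points did not, and crosses were saturated on every array. The filled points lie mainly among the DnaJ, BAG and HSP70 groups, and no CCT or HSP90 point is filled. Hsp90aa1, Hsp90ab1, Cct2 and Cct5 are crosses, which were never drawn filled, and Cct7 was saturated on 11 arrays. The absence of filled points there thus says little about these genes.

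The group of DnaJ C proteins held both the largest rise and the largest fall among members measured above background in every group. These proteins share the J domain with other J proteins but little else, and they work in different places in the cell. Dnajc6 encodes auxilin, which brings HSC70 to clathrin-coated vesicles to strip their coat. Its level was -1.33, -1.35 and -1.20 in shRNA cells after 4-OHT, against -0.36, -0.18 and 0.03 before it. In control cells it was -2.13, -2.10 and -2.30 after 4-OHT, against -0.55, -0.45 and -0.67 before it. The arrays after 4-OHT lay below all arrays before it in each vector. The log2 change was -1.13 (SE 0.105, adjusted p = 1.16e-05, 2.18-fold lower) in shRNA cells and -1.62 (SE 0.105, adjusted p = 6.34e-07, 3.07-fold lower) in control cells.

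Dnajc15 encodes a J protein of the inner mitochondrial membrane that restrains respiratory complex I. It stood at 3.93, 3.82 and 3.85 in shRNA cells after 4-OHT, against 2.97, 2.89 and 2.86 before it. Control cells had 4.56, 4.20 and 4.11 after 4-OHT, against 3.13, 3.13 and 3.18 before it. The groups after 4-OHT were higher without overlap. Dnajc15 rose by 0.96 (SE 0.103, adjusted p = 3.39e-05, 1.95-fold) in shRNA cells and by 1.15 (SE 0.103, adjusted p = 8.11e-06, 2.21-fold) in control cells. Both genes passed under each of the 23 alternative settings in each vector. Each has 1 probe, which was never saturated, so the settings that choose among probes could not change its values.

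Dnajc13 encodes RME-8, which recruits HSC70 to endosomes for sorting and recycling. Its level was 1.54, 1.54 and 1.50 in shRNA cells after 4-OHT, against 0.81, 0.98 and 1.15 before it. In control cells the values were 1.05, 1.28 and 1.32 after 4-OHT, against 0.91, 0.85 and 0.83 before it. No array after 4-OHT fell within the range before it, and the rise was 0.55 (adjusted p = 0.00114) in shRNA cells and 0.35 (adjusted p = 0.0139) in control cells. The control call was lost with the slide as a fixed block (0.18, adjusted p = 0.121), and without control array B (adjusted p = 0.053) or C (adjusted p = 0.0535) after 4-OHT.

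Dnajc17, a J protein linked to splicing, fell by 0.42 (adjusted p = 0.000656) in shRNA cells and by 0.34 (adjusted p = 0.00234) in control cells. Its values were -0.41, -0.35 and -0.30 in shRNA cells after 4-OHT, against 0.00, -0.01 and 0.21 before it. In control cells they were -0.41, -0.43 and -0.41, against -0.08, -0.07 and -0.09. Both of its probes fell in both vectors, with log2 changes between -0.45 and -0.34. Dnajc12, which works with HSC70 on aromatic amino acid hydroxylases, fell by 0.39 (adjusted p = 0.0062) in shRNA cells and by 0.33 (adjusted p = 0.0139) in control cells. It had no value on 2 of the 12 arrays, 1 in each comparison, and its calls were lost without shRNA array A before 4-OHT (adjusted p = 0.0508), and without control array B (adjusted p = 0.0717) or C (adjusted p = 0.0525) after it. The control array without a value was A after 4-OHT, so the Dnajc12 change in control cells cannot be told apart from the slide. Dnajc16 passed in shRNA cells alone on its tested probe (-0.22, adjusted p = 0.0279) and had -0.16 (adjusted p = 0.0883) in control cells. Its 4 probes ranged from -0.45 to -0.13 in shRNA cells and, with differing signs, from -0.54 to 0.28 in control cells. The call was lost under 10 of the 23 alternatives, among them the fits without shRNA array A or B before or after 4-OHT (adjusted p between 0.0846 and 0.0898). Of the 17 DnaJ C genes tested, 2 rose and 4 fell in shRNA cells, leaving 11 that did not pass, and 2 rose and 3 fell in control cells, leaving 12.

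**Figure D2:**
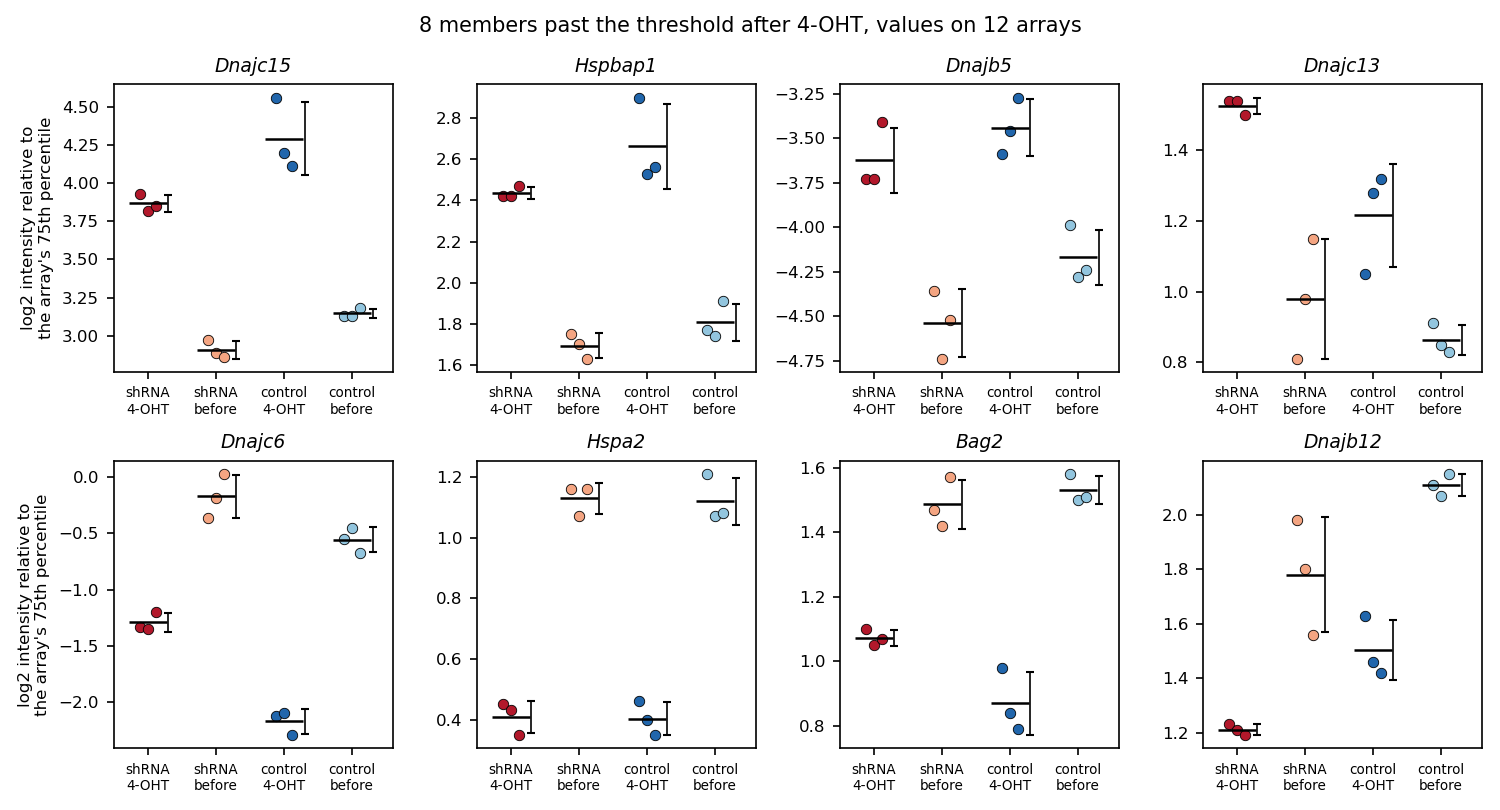
Log2 intensity relative to the array's 75th percentile (vertical axes) of 8 members in the 4 groups, with 1 point per array, a line at the mean and a bar of 1 SD (n = 3). In each panel the 3 arrays after 4-OHT lie wholly above (top row) or below (bottom row) the 3 before it in the same vector. The 8 members were chosen among those without overlap, so this was fixed by the choice.

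Among the DnaJ B proteins, which mostly hand misfolded clients to HSP70, 2 of 8 tested genes rose and 1 fell in each vector. Dnajb5, a class B J protein known to bind the histone deacetylase HDAC4 in heart cells, was a dim probe on these arrays. Its level was -3.73, -3.73 and -3.41 in shRNA cells after 4-OHT, against -4.36, -4.74 and -4.52 before it. Control cells had -3.59, -3.46 and -3.27 after 4-OHT, against -3.99, -4.28 and -4.24 before it. The rise was 0.92 (adjusted p = 0.000317) in shRNA cells and 0.73 (adjusted p = 0.00132) in control cells, without overlap. The normexp background setting ended both calls, at 0.26 (adjusted p = 0.232) and 0.43 (adjusted p = 0.0529). Of its 3 probes, those other than the tested one ranged down to a change of -0.06 in shRNA cells and to 0.27 in control cells.

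Dnajb12 encodes a J protein of the endoplasmic reticulum membrane that takes part in the degradation of misfolded membrane proteins. Its level was 1.23, 1.21 and 1.19 in shRNA cells after 4-OHT, against 1.98, 1.80 and 1.56 before it. Control cells had 1.63, 1.46 and 1.42 after 4-OHT, against 2.11, 2.07 and 2.15 before it. Dnajb12 fell by 0.57 (adjusted p = 0.000995) in shRNA cells and by 0.61 (adjusted p = 0.000599) in control cells, and its second probe fell in the same direction. With the slide as a fixed block the fall was 0.35 (adjusted p = 0.0122) in shRNA cells.

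Dnajb6, which keeps polyglutamine proteins from aggregating, had the heat shock element printed above. Its tested probe had 2.65, 2.64 and 2.61 in shRNA cells after 4-OHT, against 2.40, 2.44 and 2.39 before it, and 2.82, 2.65 and 2.59 in control cells after 4-OHT, against 2.44, 2.47 and 2.51 before it. The rise was 0.22 (adjusted p = 0.0231) in shRNA cells and 0.21 (adjusted p = 0.0281) in control cells. A second probe, designed to other transcripts of the gene, moved the other way, with -0.38 in shRNA cells and -0.05 in control cells. The median over its probes was therefore -0.08 in shRNA cells (adjusted p = 0.626), so the direction depends on the probe. The call on the tested probe was lost under 9 of the 23 alternatives in control cells, among them the fits without control array A, B or C before 4-OHT or A after it (adjusted p between 0.05 and 0.085). In shRNA cells it was also lost without shRNA array A or C before 4-OHT or A or B after it (adjusted p between 0.053 and 0.0679). Dnajb1 and Dnaja1, the main cytosolic partners of HSP70, did not pass. Dnajb1 changed by -0.12 (adjusted p = 0.262) in shRNA cells and by -0.10 (adjusted p = 0.413) in control cells, with no value on 3 of the 12 arrays. It passed in shRNA cells with the slide as a fixed block (-0.17, adjusted p = 0.0305). Dnaja1 had -0.26 (adjusted p = 0.0566) and -0.15 (adjusted p = 0.262) on its tested probe. The other probes of Dnaja1 ranged down to -0.41 in shRNA cells and -0.43 in control cells. Of the 3 DnaJ A genes tested, Dnaja3, the mitochondrial member, fell in control cells (-0.24, adjusted p = 0.0207) and had -0.13 (adjusted p = 0.189) in shRNA cells. Its call in control cells was lost with the slide as a fixed block (-0.12, adjusted p = 0.285) and when control array C before 4-OHT (adjusted p = 0.084), or B (adjusted p = 0.0775) or C (adjusted p = 0.0717) after it, was left out.

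The BAG co-chaperones release clients from HSP70, and none of the 4 tested genes rose. Bag2, which also inhibits the ubiquitin ligase CHIP, had 1.10, 1.05 and 1.07 in shRNA cells after 4-OHT, against 1.47, 1.42 and 1.57 before it. Control cells had 0.98, 0.84 and 0.79 after 4-OHT, against 1.58, 1.50 and 1.51 before it. Bag2 fell by 0.41 (SE 0.068, adjusted p = 0.000716) in shRNA cells and by 0.66 (SE 0.068, adjusted p = 2.09e-05) in control cells. Bag5, a protein with several BAG domains, fell by 0.33 (adjusted p = 0.00672) in shRNA cells and by 0.36 (adjusted p = 0.00339) in control cells. With the slide as a fixed block its fall in control cells was 0.21 (adjusted p = 0.0494). Bag4, which binds TNF receptor 1, fell in control cells (-0.32, adjusted p = 0.00579) and had -0.06 (adjusted p = 0.552) in shRNA cells. Its control call was lost with the slide as a fixed block (adjusted p = 0.0587). A second Bag4 probe had -0.53 in shRNA cells and -0.74 in control cells, so the small change in shRNA cells holds for the tested probe only. Bag3, which pairs HSP70 with small heat shock proteins in selective autophagy, had 0.74, 0.57 and 0.66 in shRNA cells after 4-OHT, against 0.61, 0.65 and 0.62 before it. Its groups overlapped in both vectors (adjusted p = 0.71 in shRNA cells and 0.245 in control cells). A second Bag3 probe had -0.35 in shRNA cells and 0.46 in control cells, so the small changes hold for the tested probe only. Bag1 was not tested, because marked spots left too few values.

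Of the 9 HSP70 and HSP110 genes tested, 1 rose and 2 fell in each vector. Hspa2, the HSP70 best known from male germ cells, had 0.45, 0.43 and 0.35 in shRNA cells after 4-OHT, against 1.16, 1.07 and 1.16 before it. In control cells it had 0.46, 0.40 and 0.35 after 4-OHT, against 1.21, 1.07 and 1.08 before it. The falls were 0.72 (SE 0.065, adjusted p = 9.35e-06, 1.64-fold lower) in shRNA cells and 0.72 (SE 0.065, adjusted p = 7.75e-06, 1.65-fold lower) in control cells. Its second probe fell too, so that its changes lay between -0.72 and -0.64, and the values of the vectors overlapped before and after 4-OHT.

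Hspa12a, a distant HSP70 relative, was not well above background before 4-OHT. Hspa12a passed the filter on dim spots only through the arrays after 4-OHT, so a fall could not have been seen. It had -4.99, -4.53 and -4.55 in shRNA cells after 4-OHT, against -5.77, -6.21 and -5.30 before it, and -4.41, -4.06 and -4.01 in control cells after 4-OHT, against -4.51, -5.28 and -5.17 before it. The rise was at least 1.34-fold (adjusted p = 0.00783) in shRNA cells and at least 1.39-fold (adjusted p = 0.0266) in control cells, a bound computed on each array from the dimmest probe well above background. Neither call was kept with the slide as a fixed block (adjusted p = 0.188 and 0.203). The control call was also lost when control array B (adjusted p = 0.0951) or C (adjusted p = 0.0874) before 4-OHT, or B (adjusted p = 0.0775) or C (adjusted p = 0.0818) after it, was left out. Hspa4l, an HSP110-type exchange factor, fell by 0.24 (adjusted p = 0.0385) in shRNA cells and by 0.28 (adjusted p = 0.0187) in control cells. With the slide as a fixed block it had -0.21 (adjusted p = 0.054) and -0.09 (adjusted p = 0.374). Its call was lost under 15 of the 23 alternatives in shRNA cells, with any 1 shRNA array or any 1 control array before 4-OHT left out (adjusted p between 0.0508 and 0.12). In control cells it was lost under 8, among them the fits without control array C before 4-OHT (adjusted p = 0.0683) and B (adjusted p = 0.0745) or C (adjusted p = 0.0701) after it. Hspa1a, the stress-inducible HSP70, had -1.93, -1.94 and -2.04 in shRNA cells after 4-OHT, against -1.99, -2.04 and -2.13 before it. Control cells had -1.63, -1.93 and -1.76, against -2.32, -1.98 and -1.77, and neither change passed (adjusted p = 0.644 and 0.149). Hspa1b was not on the array by name, and the 2 genes are near-identical in sequence, so their signals cannot be told apart. Hsph1, the HSP110 whose first transcribed bases held a heat shock element, changed by -0.10 (adjusted p = 0.444) and by -0.08 (adjusted p = 0.531).

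Probes of several major chaperones were too bright for the scanner. Hsp90aa1, Hsp90ab1, Hspa8, Hspd1, Cct2 and Cct5 were saturated on all 12 arrays, and Cct7 on 11. A saturated spot gives only a lower bound, so no fold can be given when both groups are saturated. The nominal levels of Hsp90ab1 were 4.70, 4.59 and 5.01 in shRNA cells after 4-OHT, against 4.99, 5.12 and 5.35 before it. In control cells they were 5.28, 5.29 and 4.97, against 5.77, 5.11 and 5.32. Hsp90aa1 and Hsp90ab1, the inducible and the constitutive cytosolic HSP90, did not pass in either vector (adjusted p between 0.114 and 0.57). A second Hsp90ab1 probe, saturated on 2 arrays, changed by -0.26 in shRNA cells and by -0.13 in control cells. Both Hspa8 probes were saturated throughout, so the constitutive HSC70 has no measured change here.

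For Hspd1 and Cct2 a weaker probe was saturated on no array, and its values were read after the tested ones had been seen. Hspd1 is the HSP60 subunit of the mitochondrial chaperonin. This probe had 3.89, 3.82 and 3.77 in shRNA cells after 4-OHT, against 3.30, 3.44 and 3.68 before it, a change of 0.35 (SE 0.10, adjusted p = 0.0179). In control cells it had 3.50, 3.30 and 3.30 after 4-OHT, against 3.22, 3.23 and 3.35 before it, a change of 0.10 (SE 0.10, adjusted p = 0.476). The saturated Hspd1 probe ran the other way in shRNA cells (-0.39, adjusted p = 0.0974). Hspe1, its lid, measured by 1 probe that was never saturated, had 0.14 (adjusted p = 0.43) in shRNA cells and 0.03 (adjusted p = 0.865) in control cells. It passed in control cells with the slide as a fixed block (0.37, adjusted p = 0.0222). Of Cct2, the never saturated probe had 2.50, 2.39 and 2.27 in shRNA cells after 4-OHT, against 2.88, 2.78 and 2.62 before it. Control cells had 2.88, 2.71 and 2.56 after 4-OHT, against 3.11, 3.03 and 3.09 before it. These are changes of -0.37 (adjusted p = 0.0133) and -0.36 (adjusted p = 0.0143). The saturated probe gave a nominal -0.35 (adjusted p = 0.174) and -0.13 (adjusted p = 0.616), which are not measured changes.

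**Figure D3:**
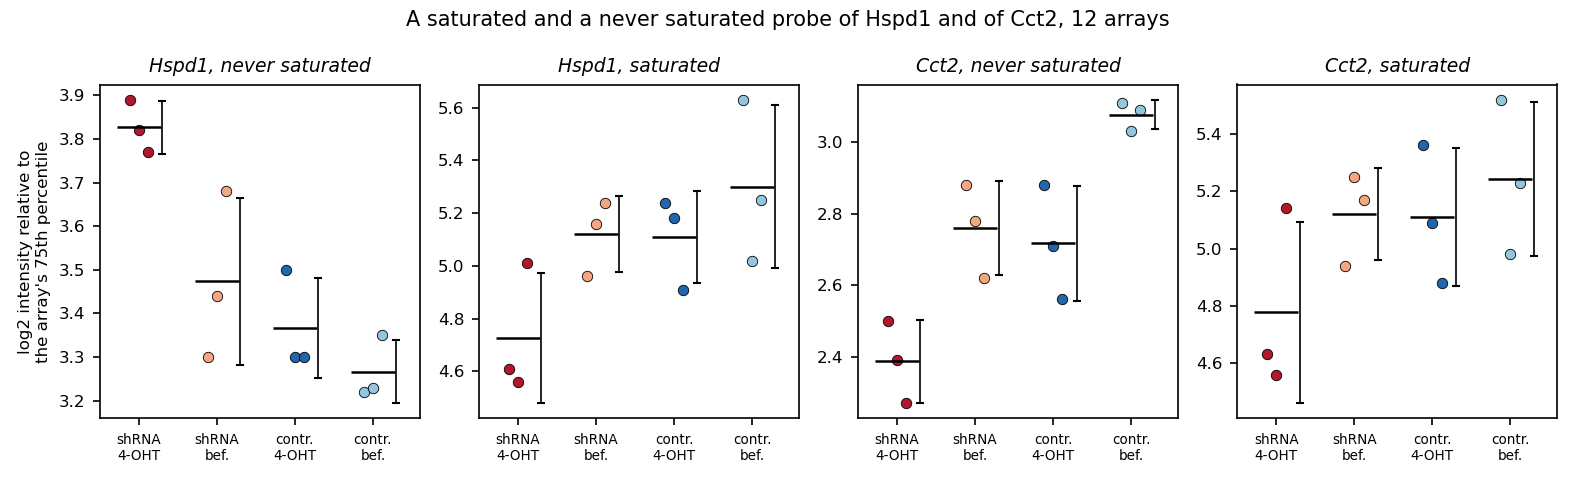
Log2 intensity relative to the array's 75th percentile of a never saturated and a saturated probe of Hspd1 and Cct2, with 1 point per array, a line at the mean and a bar of 1 SD (n = 3). The never saturated Hspd1 probe is highest in shRNA cells after 4-OHT (3.77 to 3.89), where the saturated probe is nominally lowest (4.56 to 5.01). Values of a saturated probe are lower bounds, so its pattern is not one of the gene.

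None of the 7 CCT genes tested passed in either 4-OHT comparison by limma on its brightest probe, with Cct2 the exception on its weaker probe. Cct3 had 3.19, 3.23 and 3.42 in shRNA cells after 4-OHT, against 2.89, 2.87 and 3.18 before it (0.30, adjusted p = 0.0516), and 3.06, 2.81 and 2.90 in control cells after 4-OHT, against 2.84, 2.66 and 2.84 before it (0.15, adjusted p = 0.317). Cct4, saturated on 2 arrays, had 0.07 (adjusted p = 0.735) and -0.04 (adjusted p = 0.863). Cct6a, without a value on 1 array, had -0.10 (adjusted p = 0.501) and -0.03 (adjusted p = 0.867), and Cct6b, the testis-type subunit, had -0.07 (adjusted p = 0.455) and -0.14 (adjusted p = 0.175). Cct5 and Cct7 gave bounds alone. Cct8 was left out for marked spots. At an unadjusted p under 0.05, 23 of the 58 members passed in shRNA cells (39.7%, against 47.3% of all genes) and 21 in control cells (36.2%, against 47.8%), all roles together.

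Small heat shock proteins, which hold unfolded clients without ATP, were mostly not measured above background. Hspb2, Hspb3 and Hspb7 were above background on 0 arrays, and Hspb1 and Hspb8 on 1 each. Hspb6 and Hspb9 were tested and did not pass in either vector (adjusted p between 0.0943 and 0.551). Hspbap1, a binding partner of HSPB1, did rise. It had 2.42, 2.42 and 2.47 in shRNA cells after 4-OHT, against 1.75, 1.70 and 1.63 before it. Control cells had 2.90, 2.53 and 2.56 after 4-OHT, against 1.77, 1.74 and 1.91 before it. The rises were 0.74 (SE 0.097, adjusted p = 0.00014, 1.67-fold) and 0.86 (SE 0.097, adjusted p = 4.27e-05, 1.81-fold).

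Hsf1, the main heat shock transcription factor, had 4.59, 4.46 and 4.72 in shRNA cells after 4-OHT, against 4.54, 4.60 and 4.82 before it. Control cells had 4.19, 4.45 and 4.37 after 4-OHT, against 4.77, 4.49 and 4.55 before it. The changes were -0.06 (adjusted p = 0.673) in shRNA cells and -0.27 (adjusted p = 0.0814) in control cells, where it passed with the slide as a fixed block (-0.41, adjusted p = 0.0399). Hsf2, which can pair with HSF1, was near background and above it on 3 of 12 arrays. It passed in control cells (0.96, adjusted p = 0.0436) although its groups overlapped, with -5.36, -4.53 and -5.18 after 4-OHT, against -6.03, -5.26 and -6.65 before it. In shRNA cells it had -4.50, -5.03 and -5.32, against -4.92, -4.73 and -4.92 (adjusted p = 0.849), and no usable fold could be given. The Hsf2 call was lost under 12 of the 22 alternatives that gave it a value. Hsf4 was above background on 0 arrays.

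The vectors shared most of the response. Between the vectors, 51 of 58 members changed in the same direction after 4-OHT, against 84.1% of all genes, and the 2 comparisons share no array. The 51, and the correlations below, include the 7 members saturated on 11 or 12 arrays. These were negative in both vectors and can hardly show a change, so their agreement is not a measured one. The never saturated Hspd1 probe had 0.35 in shRNA cells and 0.10 in control cells. 14 members passed in both vectors, 6 rising and 8 falling, all with the same sign. The 6 include Hspa12a, which passed the filter on dim spots only through the arrays after 4-OHT. A further 3 passed in control cells alone (Hsf2, Bag4 and Dnaja3), 1 in shRNA cells alone (Dnajc16), and 40 in neither. The changes correlated across members with Pearson's r of 0.857 and Spearman's rho of 0.801, and r was 0.934 across all genes. Genes are not independent replicates, so no p is given. Passing in 1 vector does not show a difference, and no member passed the test of the difference itself by limma. At an unadjusted p under 0.05 there were 3 (5.17%, against 5.24% of all genes), Dnajc6 (0.49, SE 0.148, adjusted p = 0.814), Bag2 (0.25, SE 0.096, adjusted p = 0.932) and Bag4 (0.26, SE 0.107, adjusted p = 0.932). Each fell more in control cells than in shRNA cells. Of all genes, 0 passed that test. In shRNA cells 8 of the 15 calls, and in control cells 8 of the 17, were kept under all 23 alternatives. Those of both vectors were Dnajc15, Hspbap1, Dnajc6, Hspa2, Bag2, Dnajb12 and Dnajc17, with Dnajc13 in shRNA cells and Bag5 in control cells.

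**Figure D4:**
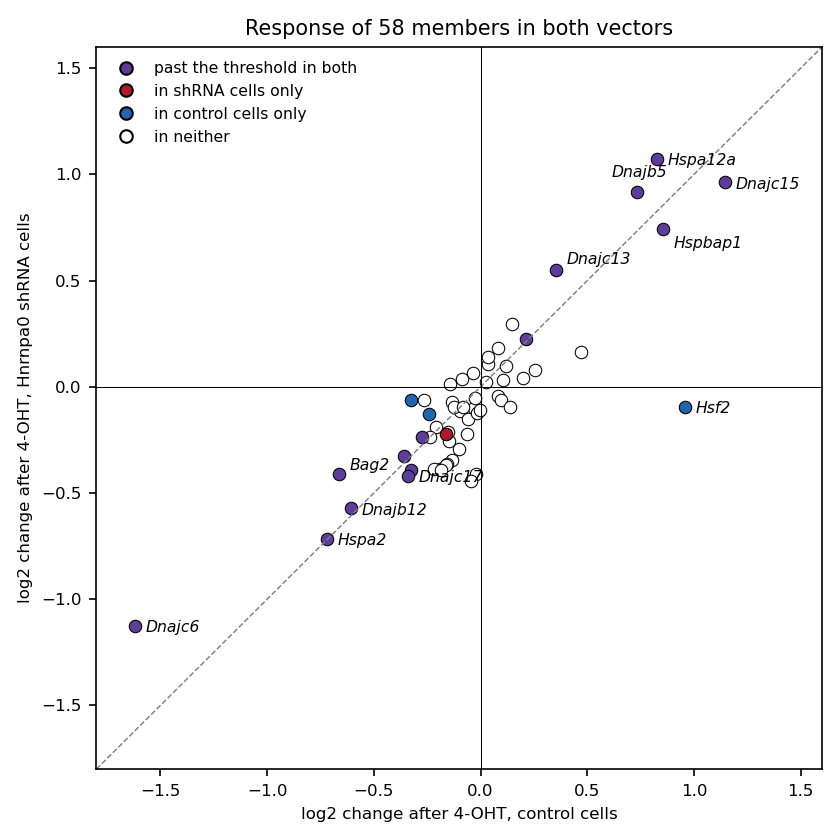
Log2 change after 4-OHT in shRNA cells (vertical axis) against control cells (horizontal axis), with 1 point for each of 58 members and a dashed line of equal change. The 14 members past the threshold in both vectors lie in the lower left or upper right, and Hsf2 lies far off the line.

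Without 4-OHT, Hnrnpa0 knockdown moved no member past the threshold by limma, and 0.378% of all genes passed. At an unadjusted p under 0.05 there were 8 members (13.8%, against 22.3% of all genes). Dnajc6 was higher in shRNA cells, by 0.39 (adjusted p = 0.0931), and Dnajb12 was lower, with -0.33 (adjusted p = 0.109). When shRNA array A was left out these 2 members passed (adjusted p = 0.043 and 0.0437). Array A had the highest Hnrnpa0 level of the shRNA arrays before 4-OHT (1.93, against 1.57 and 1.00). The part of this in the 2 calls was not tested. The median log2 difference was -0.05 over the members and -0.03 over all genes.

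After 24 h of 4-OHT, 4 of 58 members differed between the vectors (6.90%), against 16.7% of all genes; 2 were higher and 2 lower in shRNA cells, against 7.85% and 8.82% of all genes. Dnajc6 was higher in shRNA cells, with -1.33, -1.35 and -1.20 against -2.13, -2.10 and -2.30 in control cells (0.88, SE 0.105, adjusted p = 0.0074, 1.84-fold). Dnajc15 was lower in shRNA cells, with 3.93, 3.82 and 3.85 against 4.56, 4.20 and 4.11 in control cells (-0.42, SE 0.103, adjusted p = 0.0265, 1.34-fold lower). Markers of maturation differed between the vectors as well. Of the 3 progenitor markers tested, Kit (0.49, adjusted p = 0.0074) and Ly6a (0.735, adjusted p = 0.00941) were higher in shRNA cells, as was 1 of 5 early granulocyte markers, Gfi1 (0.61, adjusted p = 0.0074). Of the 6 monocyte and macrophage markers, Cd14 was lower (-0.395, adjusted p = 0.0428) and the other 5 did not pass. The part of these markers in the members' differences was not tested. Dnajc9, a J protein that chaperones histones H3 and H4, had 4.78, 4.65 and 4.86 in shRNA cells against 5.27, 5.03 and 4.91 in control cells (-0.30, SE 0.092, adjusted p = 0.0481). Its tested probe was saturated on 2 of the 12 arrays. Its weaker, never saturated probe gave -0.38 (adjusted p = 0.0459), and quantile normalization turned the difference to 0.042 (adjusted p = 0.775). Cct3 was higher, with 3.19, 3.23 and 3.42 in shRNA cells against 3.06, 2.81 and 2.90 in control cells (0.35, SE 0.108, adjusted p = 0.0494). A second Cct3 probe, designed to a cDNA clone and placed elsewhere in the gene region, had -0.33. With an unadjusted p under 0.05 there were 19 members (32.8%, against 34.6% of all genes).

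**Figure D5:**
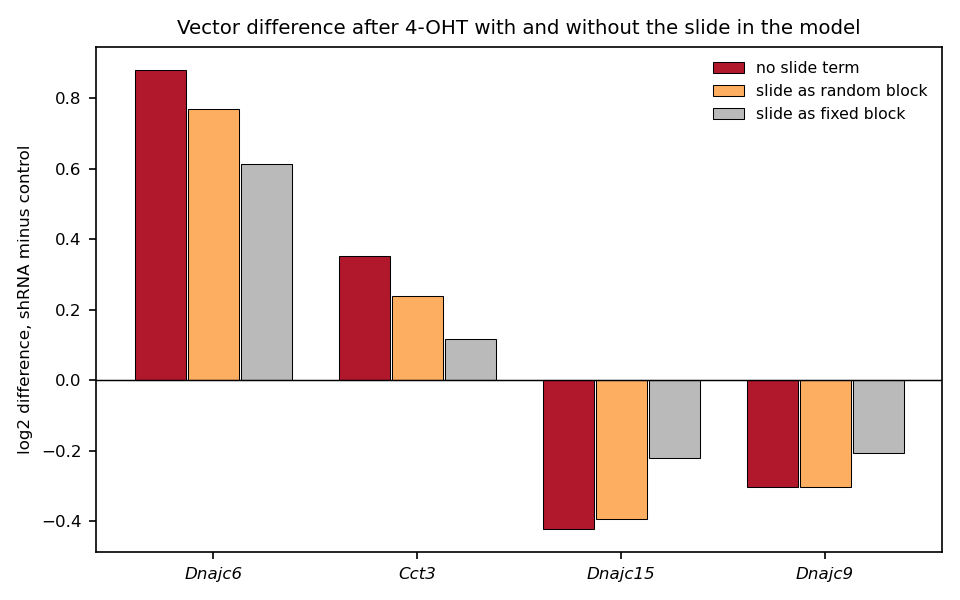
Log2 difference between shRNA and control cells after 4-OHT (vertical axis) for the 4 members that passed, fitted without the slide, with the slide as a random block and with it as a fixed block. The bars are fitted differences; each is smaller with the fixed block, and none passed with either block.

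The vectors shared no slide within a treatment: of the arrays after 4-OHT, the shRNA arrays were on slide 3 and the control arrays on slides 1 and 2. None of the 4 differences passed with the slide in the model. Dnajc6 had 0.77 (adjusted p = 0.0721) with the slide as a random block and 0.61 (adjusted p = 0.535) as a fixed block. The fixed-block values of the other members were -0.22 for Dnajc15 (adjusted p = 0.813), -0.21 for Dnajc9 (adjusted p = 0.832) and 0.12 for Cct3 (adjusted p = 0.92). Within a treatment, vector and slide cannot be told apart. The Dnajc6 difference passed without any 1 of the 12 arrays (adjusted p up to 0.0368). Arrays before 4-OHT enter this difference only through the estimate of the spread, and it stayed at 0.88 when any 1 of them was left out. Dnajc15 lost its call without control array B (adjusted p = 0.0599), or shRNA array B (adjusted p = 0.0779) or C (adjusted p = 0.0745), all after 4-OHT. Dnajc9 kept its call in 1 of the 12 fits that left out an array, that without control array C after 4-OHT (adjusted p = 0.0302), and had adjusted p between 0.0529 and 0.149 in the others. Cct3 also kept it in 1, without shRNA array C before 4-OHT (adjusted p = 0.0267), and had adjusted p between 0.0545 and 0.149 in the others. With their never saturated probes, 4 further members passed: Hspd1 (0.46, adjusted p = 0.0192) and Cct4 (0.79, adjusted p = 0.0387) were higher in shRNA cells, and Cct2 (-0.33, adjusted p = 0.0468) and Dnajc19 (-0.54, adjusted p = 0.0157) lower. The Cct4 and Dnajc19 probes of that kind were dim, at levels between -3.16 and -2.97 and between -3.36 and -3.11 in shRNA cells after 4-OHT. Apart from Dnajc15, no member that rose after 4-OHT in both vectors passed between the vectors.

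Genes that work with the members were read from 3 lists. Of the 37 HSP90 and HSP70 partners and other folding genes, 1 rose (2.7%, against 16.5% of all genes) and 9 fell (24.3%, against 21.8%) in shRNA cells, with a median of -0.15. In control cells 2 rose (5.4%, against 17.4% of all genes) and 8 fell (21.6%, against 23.0%), with a median of -0.12. The 37 include 4 genes saturated in both groups of each 4-OHT and vector comparison (Ahsa1, Cdc37, Nudc and Pfdn5). These could hardly pass, and their nominal values enter the medians. Clpp and Lonp1, proteases of the mitochondrial matrix, fell by 0.37 and 0.41 in shRNA cells and by 0.39 and 0.63 in control cells. Fkbp5 and Ppid, immunophilins that bind HSP90, fell by 0.41 and 0.43 in shRNA cells and by 0.43 and 0.58 in control cells. Unc45a, an HSP90 co-chaperone for myosin, rose by 0.31 and 0.40. Of 16 tested genes known as HSF1 targets, 0 rose on the tested probe; 2 fell in shRNA cells (Hspa4l and Serpinh1; 12.5%) and 3 in control cells (with Chordc1; 18.8%). These counts include 5 genes on probes saturated in every group (Ahsa1, Hsp90aa1, Hsp90ab1, Hspa8 and Hspd1), and the never saturated Hspd1 probe rose in shRNA cells, as given above. Serpinh1, the collagen chaperone HSP47, was not above background after 4-OHT and lay at least 2.94-fold lower in control cells. Of 10 tested chaperones of the endoplasmic reticulum, which the naming rule left out, 3 fell in shRNA cells (Calr, Dnajb9 and Manf). In control cells 2 of the 10 fell (Calr and Dnajb9). Of all genes, 21.8% fell in shRNA cells and 23.0% in control cells. The 10 include Hsp90b1 and Pdia6, saturated in both groups of each 4-OHT and vector comparison. Hspa5 was saturated in both groups of the 4-OHT comparison in shRNA cells. Such genes could hardly pass in those comparisons. Between the vectors after 4-OHT, 7 of the 37 partner genes were lower in shRNA cells (18.9%, against 8.82% of all genes) and 0 higher (against 7.85%), among them the prefoldin subunits Pfdn2 (-0.72, adjusted p = 0.0233) and Pfdn6 (-0.29, adjusted p = 0.0389) and the HSP90 co-chaperone Ptges3 (-0.47, adjusted p = 0.0218). Of the 10 chaperones of the endoplasmic reticulum, Dnajb9 was higher (0.44, adjusted p = 0.0329) and Pdia4 (-1.37, adjusted p = 0.013) and Sdf2l1 (-0.47, adjusted p = 0.0182) were lower in shRNA cells. These are 10.0% higher (against 7.85% of all genes) and 20.0% lower (against 8.82%). The slides of these arrays are those given above, and the part of the slide in these genes was not tested.

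Of the 75 members, 17 were not tested. Bag1, Cct8 and Dnajc8 were above background but had too many marked spots. Hspa1l was above background on 2 arrays, and Hspb1 and Hspb8 on 1. The other 11 were above background on 0 arrays: Dnaja4, Dnajb3, Dnajb7, Dnajb13, Dnajc5b, Dnajc5g, Hspb2, Hspb3, Hspb7, Hsf4 and Hsf2bp. By current names Hsp110 is Hsph1, Dnajb10 is Dnajb2, and Hspc171 is Tmem208, which is not a heat shock protein and did not pass in any comparison without the slide in the model. It rose in control cells after 4-OHT with the slide as a fixed block (0.48, adjusted p = 0.00153). Positions of probes follow the array's own design, built on mm7. The tested probes of 4 members that passed under all 23 alternatives in both vectors lay at chr4:101018867-101018926 (Dnajc6), chr14:72506640-72506699 (Dnajc15), chr16:35499554-35499613 (Hspbap1) and chr12:74364884-74364943 (Hspa2). The design placed both Hspa8 probes on chromosome 5, whereas RefSeq places Hspa8 on chromosome 9. An annotation of mm7 was not used here, so exons were not assigned.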

How the data were processed

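RNA of 12 PUER cultures was labelled with Cy3 and hybridised to 1-colour Agilent arrays. Per the file headers, the authors read the arrays with Feature Extraction 9.5.3.1, given as Agilent Feature Extraction 9.5 in the submitters' processing notes, and the array design used mouse build mm7. The values the authors deposited are intensity on a linear scale, 1 per spot, detrended and background-subtracted and not scaled across arrays. A second deposited table gives these intensity values rounded, within 0.497%.

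For each array log2 intensity was taken minus its 75th percentile over all non-control spots, which lay between 1196 and 2583. Spots marked as outliers were then removed and spots of a probe averaged. Spots well above background made up 50.3% to 55.7% of each array. Of the 41174 probes on it, 23082 were named through transcripts, 6582 by symbol and 3073 by an older symbol, and 8437 kept the name in the files. A probe was kept if 3 or more of the 12 arrays had it well above background and every group had it on 2 or more arrays; each gene was tested on its brightest kept probe, which left 15061 genes. limma 3.58.1 (R 4.3.3) was fitted with 4 group means and 5 contrasts, and p-values were Benjamini-Hochberg adjusted over all genes tested. The fit was tested on simulated data. Figures used Python 3.11.15 and matplotlib 3.10.9. Value columns without a sample numbered 0. With 3 arrays a group, precision is limited by the number of arrays.

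Members and lists were chosen with earlier results of these data known. Named genes were the 8 largest rises and 8 largest falls past the threshold without overlap in each 4-OHT contrast, members past the threshold between vectors, and a fixed set of well-known chaperones and CCT subunits. Dnajc16, Dnaja3, Bag4, Hsf2 and the weaker probes were named after their values were seen. Checks of the HPD tripeptide and of the last residues of HSP70 and HSP90 proteins were planned and not run, since no protein sequence was used here. Alternatives were other scaling, background, filter, probe, slide and replicate settings, and each array left out in turn. Some markers of other blood lineages are not reported here.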

Additional observations from a re-analysis of the deposited data

How the results depend on the processing

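Of members past the threshold after 4-OHT, there were 15 in shRNA cells, 8 with the normexp background and 12 to 20 with 1 array left out. In control cells there were 17, 10 with the normexp background and 11 to 21 with 1 array left out, the lowest without control array B after 4-OHT. With the slide as a fixed block 3 of the 15 calls in shRNA cells were lost (Dnajc16, Hspa12a and Hspa4l) and 2 gained (Dnajb1 and Dnajb4). In control cells 6 of the 17 were lost (Bag4, Dnaja3, Dnajc13, Hsf2, Hspa12a and Hspa4l) and 6 gained (Dnajc19, Dnajc4, Dnajc9, Hsf1, Hspe1 and Tmem208). The control call of Dnajc12 counts as kept, although without control array A after 4-OHT its change cannot be told apart from the slide. Between the vectors before 4-OHT, 0 passed, and 0 to 2 with 1 array left out, the 2 without shRNA array A. After 4-OHT 4 passed; the count was 1 without the filter on dim probes, 1 with the percentile taken after removal of marked spots, 0 with the slide as a fixed block, 0 as a random block, 8 with the never saturated probes and 1 to 8 with 1 array left out. The lowest, 1, came without control array B, shRNA array B or shRNA array C after 4-OHT, and 2 without any 1 of the 3 control arrays before it, shRNA array B before it or shRNA array A after it. It was 8 without control array C after 4-OHT and 7 without shRNA array C before it. The test of the difference between the responses gave 0 under each alternative, with 3 at an unadjusted p under 0.05 in the reported fit. The percentile after removal and the never saturated probes were chosen after seeing the data.

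With the replicate letter as a replicate block, 17 members passed in shRNA cells, 18 in control cells, 0 between the vectors before 4-OHT, 7 after it and 0 for the difference between responses. The letters were not taken as pairs, since the deviations of same-lettered arrays correlated between -0.087 and 0.304.

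5 single-gene values changed direction where either the reported fit or the alternative passed. A call of the reported fit was reversed for Dnajb6 and for the Dnajc9 difference between the vectors. Dnajc9 for 4-OHT in shRNA cells (-0.06, adjusted p = 0.613 by limma) and Hspd1 had not passed in the reported fit. The reported Hspd1 values came from a saturated probe and are not measured changes. Dnajb6 in shRNA cells after 4-OHT had -0.079 as the median over probes. Dnajc9 under quantile normalization had 0.243 (adjusted p = 0.0396) for 4-OHT in shRNA cells and 0.042 between the vectors after 4-OHT. Hspd1 on its never saturated probe had 0.35 and 0.459 in the same comparisons. The cause was not tested for Dnajc9. Saturation limits the 6 members saturated on every array to bounds, and 17 members were not tested.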
